A study of Peromyscus californicus with 17 samples.

Results

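Transcripts of the cholesterol synthesis pathway were examined in the lungs of male California mice, Peromyscus californicus, that differed in pair bonding. The gene set was chosen by symbol and names 7 genes, of which 6 have a row in the expression table of 27786 genes, and all 6 passed the filter on low values. They are the enzyme genes Hmgcs1, Fdft1, Sqle, Lss and Dhcr7 and the transcription factor gene Srebf2. Idi1, which encodes isopentenyl diphosphate isomerase, was not analysed here. The set was proposed as one of synthesis and uptake, but each of the genes found acts in synthesis or in its control, and none encodes a receptor for cholesterol uptake. Genes of uptake are therefore described from a wider list.

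The 17 animals were males of the outbred stock IS, 12 to 15 months old, with 1 RNA library from the lung of each. The bonded group (B1 to B6, n = 6) had lived with a mate for about 4 months. The bond-disrupted group (BD1 to BD6, n = 6) had been paired for the same time, after which the male was taken out of the mating cage and its lung collected on day 7. The virgin group (V2 to V6, n = 5) was of similar age and had been kept in same-cage groups without a mate, so that bonding and cage company differ together between virgins and the other groups. From the examples that the study gives, animals that carry the same number were taken to belong to the same family, as siblings or in some virgins as cousins.

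Cells make cholesterol from acetyl-CoA through the mevalonate pathway. When sterols in the endoplasmic reticulum fall, the factor encoded by Srebf2 is escorted by Scap to the Golgi, cleaved and sent to the nucleus, where it turns on nearly every enzyme gene of the pathway, while Insig proteins hold it back when sterols are plentiful. In the lung, cholesterol is a component of surfactant, which alveolar type 2 cells secrete and alveolar macrophages clear.

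Depth, worked out from the values and given in Mreads (mega-reads), had a median of 36.8 in the bonded group (30.8 to 68.2), of 46.5 in the bond-disrupted group (43.9 to 59.4) and of 43.9 among virgins (38.0 to 44.9). At this depth each of the 6 genes was covered by at least 1096 reads in every animal (the lowest was Dhcr7 in a bonded animal), so that counting error was small beside the differences between animals. Lung markers listed for the check of tissue were present throughout, with Sftpc, the surfactant protein C gene of type 2 cells, at a mean of 19872 FPKM. Markers of heart muscle were present as well, with means of 88.1 FPKM for Myl7 and 47.2 FPKM for Tnnt2, whereas Nppb stayed under 1 FPKM in every animal. Of the adipocyte markers, Cfd and Fabp4 had means of 97.2 and 84.1 FPKM, and Plin1, Lep and Cidec stayed under 1 FPKM in every animal. Over all genes, BD2 and BD6 stood farthest from their group mean, with an SD of deviations of 0.36 and 0.38 on the log2 scale against 0.22 to 0.32 in the other animals. Group differences of the members and correlations between members are therefore also given without BD2 and BD6. In bulk lung RNA, fewer cells of a type and less RNA per cell cannot be told apart.

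FPKM is the number of reads of a gene divided by its length in kilobases and by the depth in Mreads. In the deposited table, however, each value was divided by the length of another gene, the one standing 1 row higher in the first column and 17 rows higher in the last. Multiplying back by that other length turned 98.7% of 346845 low values into whole reads, within 0.01 of a read. These lengths were themselves sought as ones that give whole reads, so this share describes the fit and is no test of it. With the gene's own length, 2.21% became whole, close to the 2% that chance gives at this tolerance for a length not chosen that way. For the cholesterol genes, division by another gene's length meant large apparent differences between animals. Hmgcs1 ran from 10.8 to 1567 FPKM as deposited, and its highest value, in B5, had been divided by a length of 47 bases in place of its own 3373. Fdft1 ran from 1.77 to 106 FPKM and was divided by up to 38616 bases in place of its own 1701.

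With the own length of each gene restored, the same reads gave far smaller ranges. Hmgcs1 ran from 15.2 to 46.5 FPKM and Fdft1 from 23.8 to 57.9 FPKM. The SD within groups on the log2 scale fell from 2.04 to 0.34 for Hmgcs1, from 1.93 to 0.22 for Lss and from 0.80 to 0.20 for Srebf2, and the median over the 13473 genes whose mean was 100 reads or more fell from 1.34 to 0.19. All values that follow are FPKM with the own length unless they are called deposited.

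**Figure D1:**
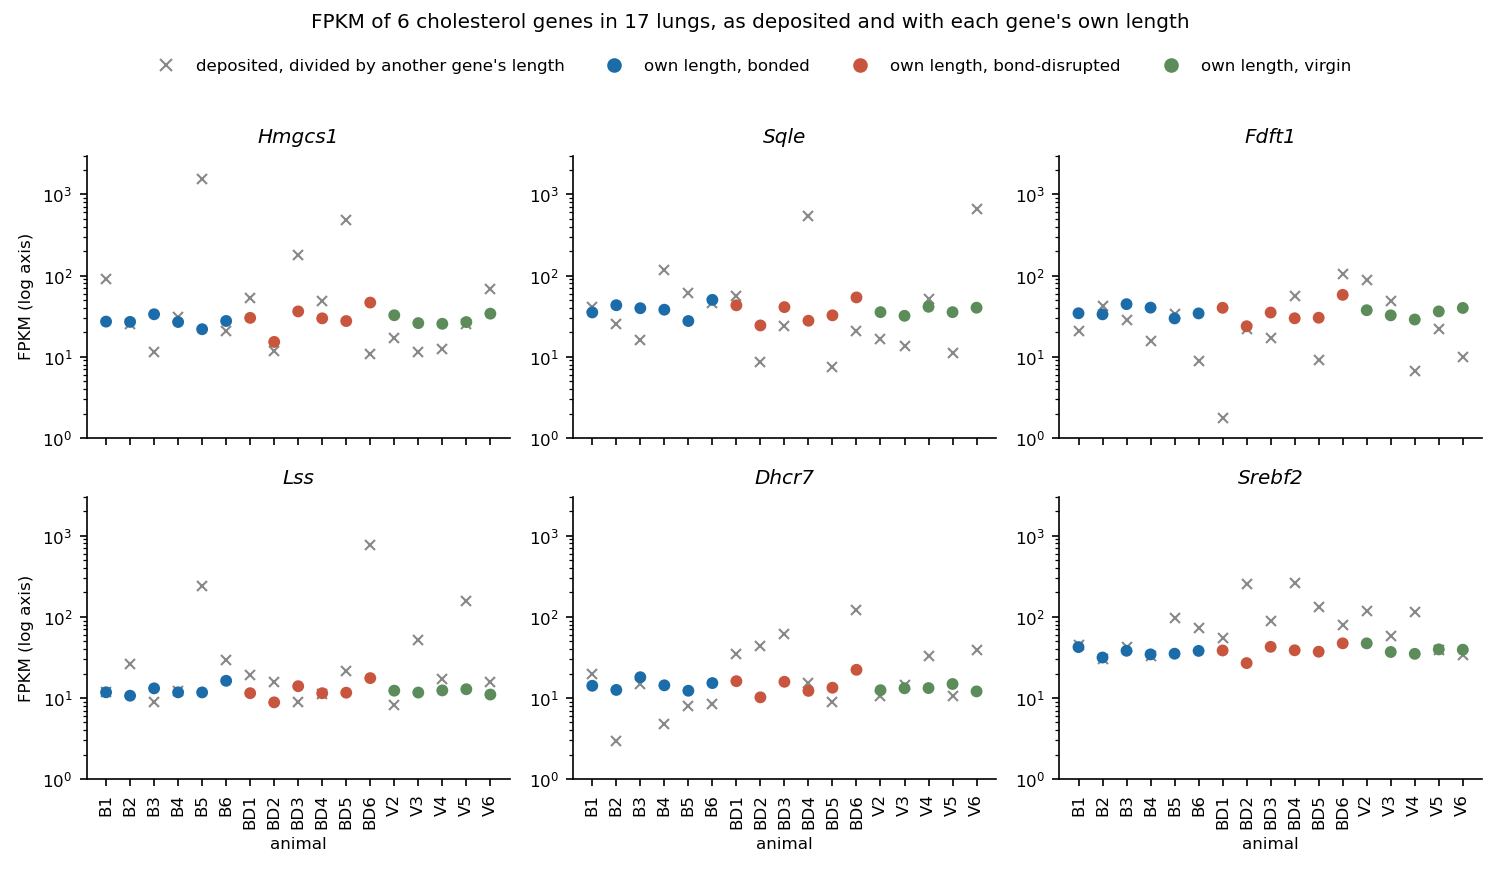
FPKM (log axis) of the 6 genes in each of the 17 animals, as deposited (grey crosses) and with the gene's own length (filled circles, coloured by group). The crosses scatter up to 1567 FPKM for Hmgcs1 and 756 FPKM for Lss, while the circles of Hmgcs1 run from 15.2 to 46.5 FPKM and those of Lss from 8.84 to 17.6 FPKM.

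Levels per length placed the 6 genes in a higher and a lower tier. Over all 17 animals, Srebf2 had a mean of 38.1 ± 5.05 FPKM (SD, n = 17), Sqle 37.7 ± 7.77 FPKM, Fdft1 35.7 ± 7.67 FPKM, Hmgcs1 29.0 ± 6.61 FPKM, Dhcr7 14.3 ± 2.78 FPKM and Lss 12.4 ± 2.04 FPKM. The order of the first 3 was not settled, since Srebf2 lay above Sqle in only 9 of 17 animals and Sqle above Fdft1 in 9 of 17. Fdft1 lay above Hmgcs1 in 16 of 17 animals, Hmgcs1 above Dhcr7 in 17 of 17, with a mean log2 difference of 0.96 ± 0.22 (SD), and Dhcr7 above Lss in 16 of 17. The mRNA of the last step and that of the cyclization of squalene were thus the least abundant of the set per length.

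Hmgcs1 encodes the cytosolic HMG-CoA synthase, which acts early in the mevalonate pathway. Its lowest, median and highest levels were 21.8, 27.0 and 33.4 FPKM in bonded animals and 15.2, 29.9 and 46.5 FPKM in bond-disrupted animals, and the virgins V2 to V6 had 32.5, 26.0, 25.5, 26.7 and 34.0 FPKM. The bonded and virgin animals lay within the range of the bond-disrupted group, whose lowest animal was BD2 and highest BD6. The means were 27.3 ± 3.67 FPKM in bonded, 30.9 ± 10.3 FPKM in bond-disrupted and 28.9 ± 3.97 FPKM in virgin animals.

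Fdft1 encodes squalene synthase, the first enzyme committed to sterols. Bonded animals had 29.7, 34.3 and 44.4 FPKM as lowest, median and highest level, bond-disrupted animals 23.8, 32.7 and 57.9 FPKM, and the virgins V2 to V6 37.4, 32.4, 28.8, 36.2 and 39.9 FPKM. Here too the other groups lay between BD2 and BD6. The means of 36.04 ± 5.35 FPKM in bonded, 36.1 ± 11.97 FPKM in bond-disrupted and 34.9 ± 4.39 FPKM in virgin animals were nearly equal.

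Sqle encodes squalene epoxidase, another control point of the pathway. Its lowest, median and highest levels were 27.5, 38.8 and 50.2 FPKM in bonded animals and 24.3, 36.6 and 53.8 FPKM in bond-disrupted animals, and the virgins had 35.4, 31.9, 41.3, 35.4 and 40.2 FPKM from V2 to V6. The SD was 7.62 FPKM in the bonded group, which ran from B5 to B6, against 10.96 FPKM in the bond-disrupted and 3.84 FPKM in the virgin group. Lss encodes lanosterol synthase, which closes the sterol rings. Its levels were 10.7, 11.7 and 16.3 FPKM in bonded and 8.84, 11.5 and 17.6 FPKM in bond-disrupted animals, with 12.3, 11.7, 12.4, 12.8 and 11.03 FPKM in V2 to V6. The virgins differed least among themselves, with an SD of 0.702 FPKM against 1.99 FPKM in bonded and 2.98 FPKM in bond-disrupted animals.

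Dhcr7 encodes the reductase that forms cholesterol from its last precursor. Bonded animals had a lowest, median and highest level of 12.3, 14.2 and 18.03 FPKM, bond-disrupted animals of 10.2, 14.6 and 22.3 FPKM, and V2 to V6 had 12.5, 13.2, 13.3, 14.9 and 12.1 FPKM. All virgins and all bonded animals lay within the bond-disrupted range. Srebf2, the regulator, had 31.5, 36.6 and 42.3 FPKM in bonded, 26.9, 38.6 and 47.1 FPKM in bond-disrupted animals and 47.1, 36.9, 34.97, 39.7 and 39.3 FPKM in V2 to V6. V2 nearly reached the level of BD6, and BD2 was the lowest animal again.

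**Figure D2:**
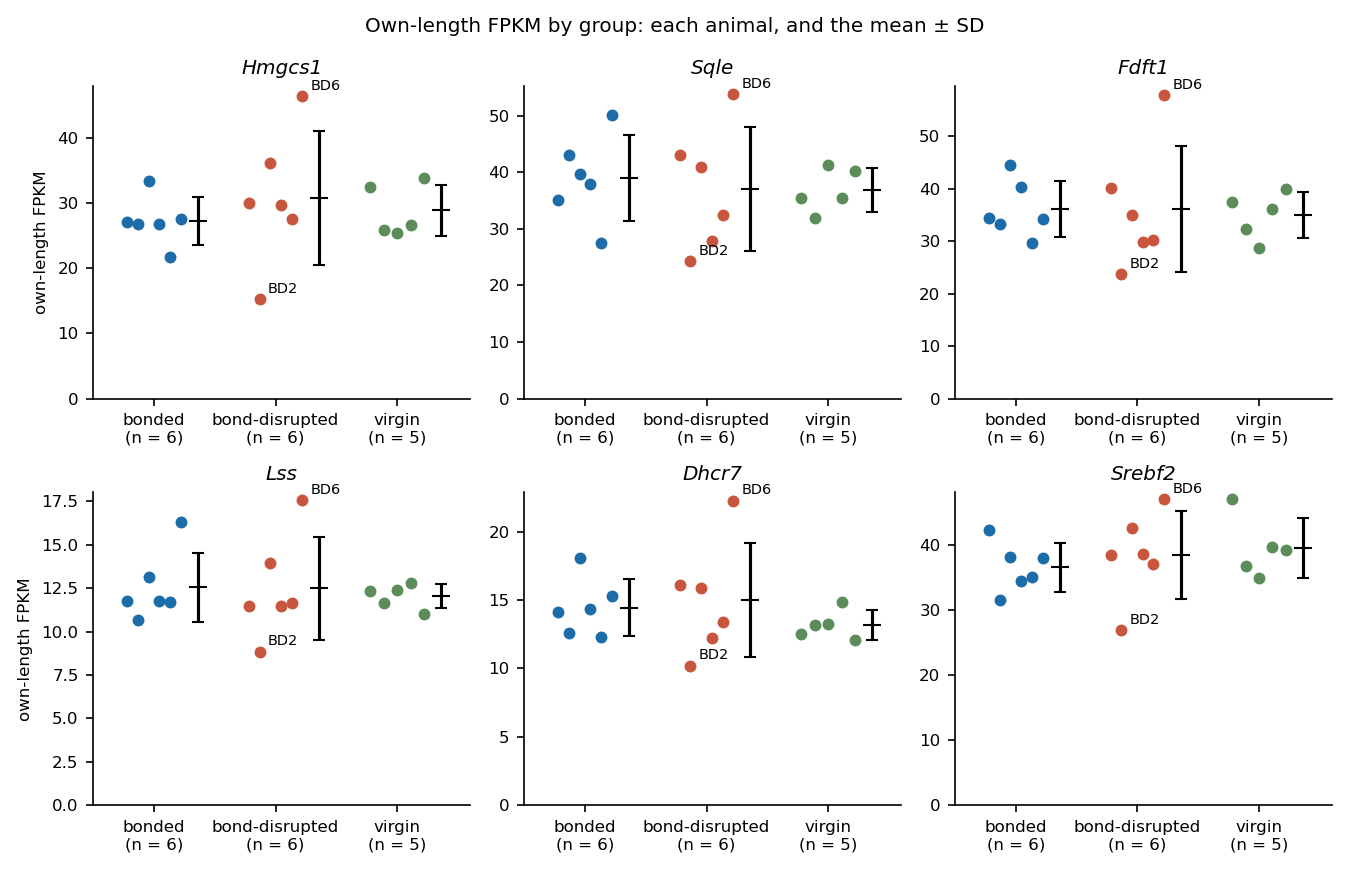
Own-length FPKM of the 6 genes by group, with 1 point per animal and the mean ± SD beside it (bonded n = 6, bond-disrupted n = 6, virgin n = 5). The groups overlap for every gene, and BD2 (for example 15.2 FPKM for Hmgcs1) and BD6 (46.5 FPKM) are the lowest and the highest animal of each panel.

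The design asks whether bonding, its disruption or its absence goes with a change in these transcripts. No member passed the test in any of the 3 comparisons, where a call needed a limma adjusted p under 0.1 over 14761 genes and a fold change of at least 2. By that rule 0.0% of all genes tested were called in each comparison. At an unadjusted p under 0.05, 0 of the 6 members passed in any comparison, against 5.89% of all genes between bond-disrupted and bonded animals (870 genes), 3.64% between virgins and bonded animals (538 genes) and 4.24% between virgins and bond-disrupted animals (626 genes). The groups overlapped in all 18 comparisons of a member.

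Differences are given as log2 fold changes of FPKM + 1, with the 95% interval from limma. Between bond-disrupted and bonded animals, Hmgcs1 differed by 0.11 (interval −0.28 to 0.51) and Sqle by −0.10 (−0.46 to 0.26). Fdft1 differed by −0.04 (−0.39 to 0.31), Lss by −0.02 (−0.29 to 0.24), Dhcr7 by 0.02 (−0.27 to 0.32) and Srebf2 by 0.06 (−0.18 to 0.30). The median of the 6 was 0.00033, and that of all genes tested was 0.0059. None of the 6 differences passed the test, with limma adjusted p from 0.948 for Hmgcs1 to 0.987 for Dhcr7. Hmgcs1 depended most on single animals. Its difference was 0.29 without BD2 (unadjusted p = 0.0419, limma adjusted p = 0.627), −0.016 without BD6 (unadjusted p = 0.927, limma adjusted p = 0.995) and 0.18 without both. Without both, the other 5 differed by −0.11 (Sqle) to 0.10 (Srebf2).

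Between virgin and bonded animals, Srebf2 differed by 0.11 (interval −0.14 to 0.36) and Dhcr7 by −0.12 (−0.43 to 0.19), the differences with the lowest unadjusted p of that comparison among the members (0.373 and 0.436). Hmgcs1 differed by 0.08 (−0.33 to 0.50), and Sqle, Fdft1 and Lss by −0.06, −0.04 and −0.04. Between virgin and bond-disrupted animals, Dhcr7 differed by −0.14 (−0.45 to 0.17, unadjusted p = 0.352 by limma, the lowest of the 18), and the other 5 by −0.03 to 0.05. The comparisons share groups, so the 3 differences of a gene are not independent. All 18 intervals held 0, and all 18 ended short of a 2-fold change, the farthest bound being 0.51 for Hmgcs1. Changes of 2-fold were thus outside the intervals, whereas smaller changes, of the size of these intervals, were not detectable with 5 or 6 animals a group.

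**Figure D3:**
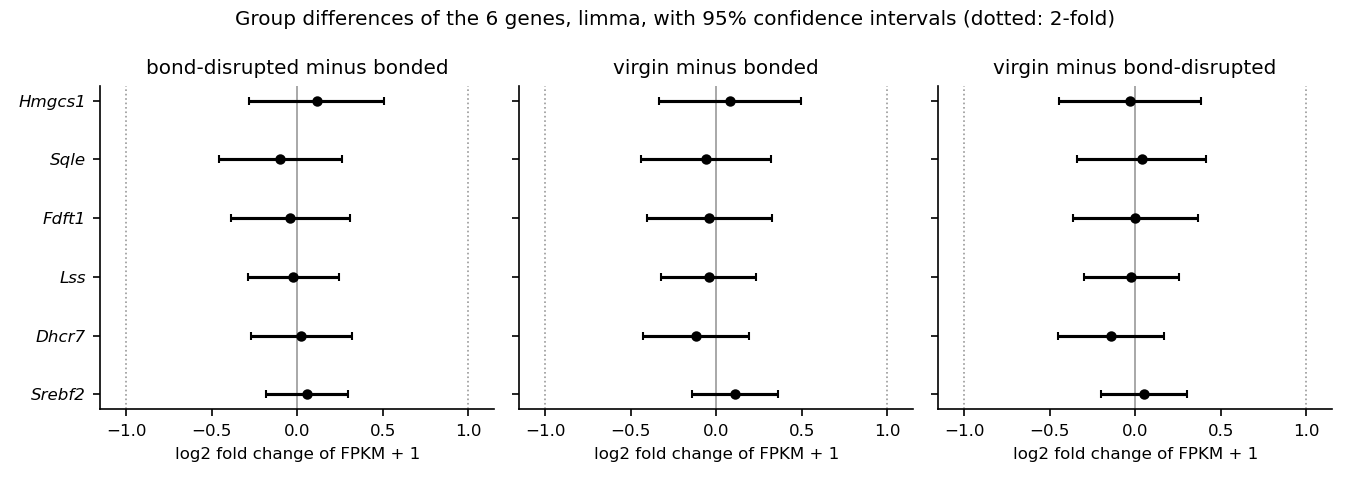
Log2 fold changes of FPKM + 1 for the 6 genes in the 3 comparisons (points) with 95% confidence intervals from limma (bars), and dotted lines at a 2-fold change. All 18 intervals cross 0, and the bound farthest from 0 is 0.51, for Hmgcs1 between bond-disrupted and bonded animals.

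The deposited values gave other differences. Dhcr7 differed between bond-disrupted and bonded animals by 1.94 on the log2 scale (unadjusted p = 0.0044 by limma), against 0.02 with its own length, and Srebf2 by 1.32 (unadjusted p = 0.013), against 0.06. Hmgcs1 differed by −1.34 between virgin and bonded animals, against 0.08 with its own length. None of the members was called as deposited either, the lowest limma adjusted p being 0.36.

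Levels of the 6 genes varied together from animal to animal. With the mean of each group subtracted, the 15 pairs of members had a mean Pearson r of 0.74 over 17 animals, from 0.50 for Sqle with Srebf2 to 0.87 for Hmgcs1 with Fdft1. In a two-sided permutation test of animals within groups, 14 of 15 pairs had an adjusted p under 0.05 over the 15 pairs, and 8 of 15 did by Spearman's rho. Hmgcs1 and Fdft1, an early and a middle enzyme, had r = 0.87 (permutation p = 0.00082, adjusted 0.0068) and rho = 0.78 (p = 0.0012, adjusted 0.0058). Hmgcs1 and its regulator Srebf2 had r = 0.84 (p = 0.0014, adjusted 0.0070) and rho = 0.79 (p = 0.00045, adjusted 0.0058). Lss and Dhcr7 had r = 0.84 (p = 0.0022, adjusted 0.0082) and rho = 0.80 (p = 0.0011, adjusted 0.0058). Sqle and Srebf2 were the pair that did not pass (r = 0.50, permutation p = 0.0963, rho = 0.38, p = 0.173). Some animals are siblings, so that the 17 are not fully independent.

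The size of these correlations depended strongly on 2 animals of the bond-disrupted group. Without the 2 animals farthest from the median of the first gene of a pair, which were BD2 and BD6 in 13 of 15 pairs, r fell to a mean of 0.44, from 0.0010 for Sqle with Srebf2 to 0.81 for Lss with Dhcr7. With both BD2 and BD6 left out of the fit, the mean r was 0.41 and 0 of 15 pairs passed (Hmgcs1 with Fdft1 came closest, r = 0.75, permutation adjusted p = 0.0633). Without BD2 alone 7 pairs passed, and without BD6 alone 6. BD2 and BD6 are the extremes of every member, so leaving them out also narrows the range of levels, which lowers r. Without both, r ran from 0.0043 for Sqle with Srebf2 to 0.75, and how closely the members go together in the other animals is not settled.

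BD2 had the lowest and BD6 the highest level of all 17 animals in 6 of 6 members, a pattern held by 2.64% of these 13473 genes. Hmgcs1 was 3.05 times as high in BD6 as in BD2, Fdft1 2.43 times, Sqle 2.21 times, Dhcr7 2.18 times, Lss 1.99 times and Srebf2 1.75 times. Among the other 15 animals the highest level was 1.66 times the lowest for Hmgcs1, 1.82 times for Sqle and 1.49 to 1.55 times for the other members. The ratio was smallest for the regulator. BD2 and BD6 were singled out after their values were seen, and no test was made of them. By their SD of deviations over all genes they also ranked 2 and 1 of the 17 animals.

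**Figure D4:**
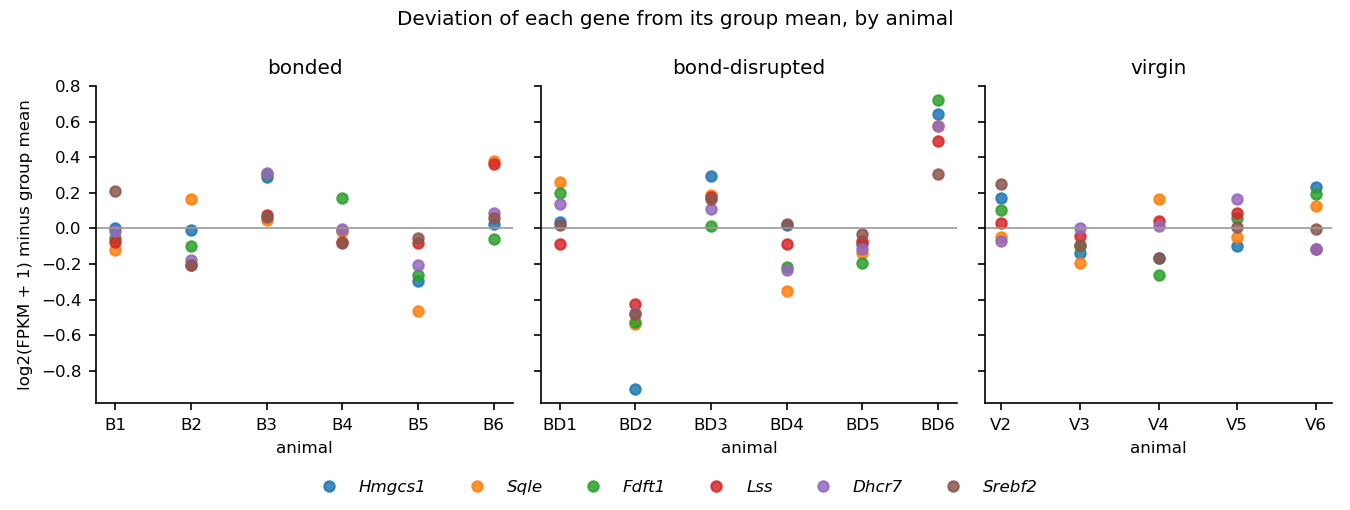
Deviation of each of the 6 genes from its group mean, in log2(FPKM + 1), for each animal of the 3 groups (1 coloured point per gene). All 6 points of BD2 lie below 0 and all 6 of BD6 above it, with mean deviations of −0.56 and 0.55, while the points of the virgins lie on both sides of 0.

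The spread within groups followed these animals. The SD of log2 levels was largest in the bond-disrupted group for 6 of 6 members, as it was for 50.6% of the 13473 genes. For Hmgcs1 it was 0.52 in bond-disrupted, 0.19 in bonded and 0.19 in virgin animals, and for Dhcr7 it was 0.36, 0.19 and 0.11. In the 4 bond-disrupted animals other than BD2 and BD6 it was 0.16 for Hmgcs1 and 0.18 for Dhcr7. For Sqle it was 0.42 in all 6 bond-disrupted animals and 0.29 in these 4, beside 0.28 in bonded and 0.15 in virgin animals. Leaving out the lowest and the highest animal lowers an SD by itself, and the other groups were not cut in this way. The median SD over the 13473 genes fell as well, from 0.202 to 0.165.

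Within the groups, the mean r over the 15 pairs was 0.92 in bond-disrupted animals (from 0.840 to 0.997), 0.46 in bonded animals (from −0.04 to 0.89) and 0.03 in virgins (from −0.72 to 0.85). These are descriptions over 5 or 6 animals each. In the bond-disrupted group without BD2 and BD6, r was above 0 in 15 of 15 pairs over the 4 animals left (mean 0.64). In bonded animals 14 of 15 pairs had an r above 0, and B5 lay below the group mean in each of the 6 members and B3 above it in each. In virgins 6 of 15 pairs had an r above 0. A difference between the groups in this co-variation was not tested.

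Families were compared through the 6 pairs of bonded and bond-disrupted siblings, a comparison chosen after seeing the data. Across the 6 families, Lss levels of the siblings had r = 0.97 (exact two-sided permutation test, p = 0.0069, adjusted over the members 0.0417) and rho = 0.83 (exact p = 0.0583, adjusted 0.308). Over the 4 families other than 3 and 6, r was 0.997. There B1, B4 and B5 had 11.7 to 11.8 FPKM and BD1, BD4 and BD5 11.5 to 11.6 FPKM. That r thus rested on family 2, with 10.7 FPKM in B2 and 8.84 FPKM in BD2. The other 5 members had r from 0.03 for Fdft1 to 0.68 for Srebf2, each with an exact permutation p above that of Lss, the lowest being 0.122. Without the 2 farthest families of each gene, r was −0.69 for Sqle, 0.75 for Hmgcs1, 0.45 for Fdft1, 0.87 for Dhcr7 and 0.87 for Srebf2. All 6 had an r above 0, as did 60.9% of the 13473 genes. Family number and place in the column order coincide in these groups and cannot be told apart.

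The other enzyme genes of the pathway were taken from a list of 21 enzyme genes, members included, of which 17 could be tested. None was called in any comparison, and at an unadjusted p under 0.05 there were 0 of 17 in each direction in all 3 comparisons. Their median log2 difference was 0.02 between bond-disrupted and bonded animals, −0.03 between virgins and bonded animals and −0.02 between virgins and bond-disrupted animals, where all genes tested had medians of 0.0059, 0.0055 and 0.0044. Across animals, 8 of the 12 enzyme genes that are not members had an r above 0.5 with the mean of the 6 members (each scaled to its SD), against 11.1% of all genes. Erlin2, below, is named for its unadjusted p, and the other genes named from the lists were chosen after their values were seen. Msmo1, the sterol methyl oxidase, had r = 0.90 and stood at 27.2 FPKM in BD2 and 58.7 FPKM in BD6. Mvk, mevalonate kinase, did not follow (r = −0.13), with 15.8 FPKM in BD2 and 13.5 FPKM in BD6.

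Genes that control the SREBP factors numbered 14, all tested, with 0 called in any comparison. At an unadjusted p under 0.05 there was 1 of 14 between bond-disrupted and bonded animals, 0 between virgins and bonded animals and 1 between virgins and bond-disrupted animals, where 5.89%, 3.64% and 4.24% of all genes tested passed, so that 1 of 14 is near the background. The gene of the last comparison was Erlin2. Erlin2, an endoplasmic reticulum protein that takes part in the degradation of membrane proteins, had a log2 difference of 0.15 between virgins and bond-disrupted animals (unadjusted p = 0.0469, limma adjusted p = 0.945), with means of 16.8 ± 1.21 and 15.04 ± 1.22 FPKM. Neither gene passes the correction for 14761 genes. Of the 13 control genes other than Srebf2, 3 had an r above 0.5 with the members, namely Insig1 (0.75), itself a target of the pathway's factor, Erlin2 (0.62) and Srebf1 (0.58). Scap, the escort of the factor, had r = −0.14 and stayed between 20.4 and 25.9 FPKM in the 17 animals.

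For uptake and transport inside the cell, 10 genes were listed and 9 passed the filter. None of the 9 was called, and none had an unadjusted p under 0.05 in any comparison. Npc2 (r = 0.80) and Lipa (0.73), which release cholesterol in lysosomes, followed the members across animals, whereas Lrp1, a large scavenging receptor, went the other way (r = −0.55), with 49.4 FPKM in BD2 and 26.3 FPKM in BD6.

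Most of the listed markers of lung cells moved with the members too, where 11.1% of all genes had an r above 0.5. The mean of the scaled members was most extreme in BD2 (−2.20) and BD6 (2.17). The r of listed genes was taken over all 17 animals and is not given without these 2. Of the 8 type 2 cell markers measured, 7 had an r above 0.5, and their summed level was 15755 to 26603 FPKM in bonded, 15900 (BD2) to 33740 (BD6) FPKM in bond-disrupted and 18956 to 31415 FPKM in virgin animals. Of 7 macrophage markers with enough reads, 5 had an r above 0.5, with summed levels over 8 markers of 116 to 303 FPKM in bonded, 81.4 (BD2) to 326 FPKM in bond-disrupted (294 FPKM in BD6) and 129 to 259 FPKM in virgin animals. Siglec1 stayed under 1 FPKM in every animal, and Marco, a receptor of alveolar macrophages, stood at 16.1 FPKM in BD2 and 97.8 FPKM in BD6. Mertk, a receptor for the uptake of dying cells, went the other way (r = −0.49), with 17.1 FPKM in BD2, the highest of the 17 animals, and 10.3 FPKM in BD6. All 4 proliferation markers with enough reads had an r above 0.5, and the summed level of 5 was 7.63 to 10.4 FPKM in bonded, 3.52 (BD2) to 14.95 (BD6) FPKM in bond-disrupted and 5.78 to 9.63 FPKM in virgin animals. Their part in the co-variation of the cholesterol genes was not tested.

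Markers of tissue that can be caught with lung were counted in the same way. Of 5 heart muscle markers with enough reads 0 had an r above 0.5, and the summed level of the 7 measured was 44.7 to 487 FPKM in bonded, 86.0 to 267 FPKM in bond-disrupted (243 FPKM in BD2, 120 FPKM in BD6) and 113 to 362 FPKM in virgin animals. Of 3 adipocyte markers with enough reads 0 had an r above 0.5, and the summed level of 7 was 98.5 to 236, 159 to 264 and 137 to 232 FPKM in the same order of groups (159 FPKM in BD2, 179 FPKM in BD6). The 3 went apart, with an r of 0.40 for Cfd (88.8 FPKM in BD2, 128.7 FPKM in BD6), −0.19 for Fabp4 and −0.52 for Plin4 (2.89 FPKM in BD2, 0.608 FPKM in BD6).

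**Figure D5:**
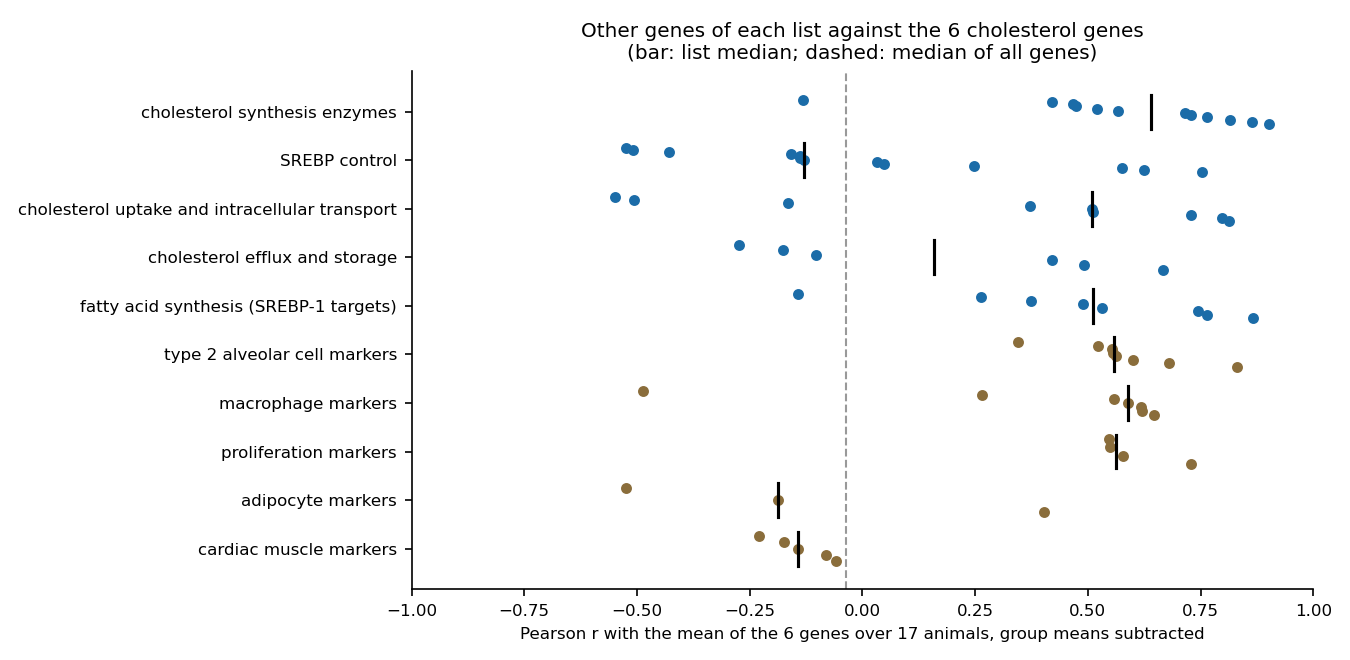
Pearson r over 17 animals, group means subtracted, between each gene of a list (points, members left out) and the mean of the 6 members scaled to their SD, with list medians (bars) and the median of all 13473 genes (dashed line, −0.04). Points of the enzyme list have a median of 0.64, those of uptake and transport 0.51, of type 2 cells 0.56, of macrophages 0.59 and of proliferation 0.56, while the medians of SREBP control (−0.13), adipocytes (−0.19) and heart muscle (−0.14) lie below 0, with 3 points of SREBP control above 0.5.

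The genes outside all lists with the pattern most like that of the members were LOC128104357 (r = 0.94), LOC128099351 (0.91), Fam118b (0.90), Etf1 (0.89) and Cept1 (0.88), over the 17 animals with group means subtracted and without test. Without BD2 and BD6 their r was 0.82, 0.75, 0.77, 0.75 and 0.64. Cept1 encodes an enzyme that makes phosphatidylcholine and phosphatidylethanolamine, and Etf1 the factor that ends translation. LOC128104357 ran from 13.0 to 34.3 FPKM and Cept1 from 22.7 to 48.1 FPKM over the 17 animals. Etf1 had an unadjusted limma p of 0.0252 between bond-disrupted and bonded animals (log2 difference 0.18) and 0.0304 between virgins and bond-disrupted animals (−0.18), with limma adjusted p values of 0.801 and 0.945, while the other 4 had none under 0.05.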

How the data were processed

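Lung RNA of 17 males was sequenced from strand-specific libraries. The submitters' processing notes name Trim Galore 0.4.5, STAR 2.7.2, SAMtools 1.5 and Subread 1.5.3 (featureCounts), and the genome build is not given in the sources used here. The authors deposited FPKM values that carry the length of a gene 1 to 17 rows higher. Depth, lengths and whole reads were recovered from these values (26463 of 27787 lengths settled, and 1468 of 1498 small RNA lengths equal to those in RefSeq), and FPKM was computed again with the own length. Depth is known only up to whether pairs were counted as 1 or 2 reads, which leaves FPKM unaffected.

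The 3 groups were fitted together with limma 3.58.1 in R 4.3.3 on log2(FPKM + 1), for the 14761 genes that reached 1 FPKM in any animal, with Benjamini-Hochberg adjustment. Correlations used 100000 permutations of animals within groups over 15 pairs of members, in place of 21, since Idi1 was not analysed here. The recovery of lengths and reads and the main limma fit were also run on simulated data with known values. The study marks siblings and cousins in its first figure, with examples that share a number, and a shared number was taken to mean relatives throughout. Deviations of 8 of 16 same-number pairs had r above 0.1 (−0.38 to 0.46). Members are given in full, other listed genes by name where an unadjusted p was under 0.05, and the 5 genes outside the lists most correlated with the members by name. Members and lists were chosen with earlier results of these data known. Alternatives were other length corrections, pseudocounts, filters, scalings, tests, thresholds, samples and a family block. Leaving out both BD2 and BD6, subtracting the median deviation of each animal, and the sibling comparison were added after seeing the data. Results for some listed genes are not reported here.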

Additional observations from a re-analysis of the deposited data

How the results depend on the processing

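No setting led to a call of a member, and the lowest limma adjusted p of a member was 0.762 over the 12 settings other than deposited values. With deposited values, 40, 113 and 35 genes were called in bond-disrupted against bonded, virgin against bonded and virgin against bond-disrupted animals, and 1556 and 1257 passed an unadjusted p under 0.05 in the last 2. Without a filter on low values 1393, 979 and 1033 genes passed it, and without BD2 and BD6 1140 passed it between virgins and bond-disrupted animals. With the family number as a replicate block, 0 genes were called and 835 and 574 passed the unadjusted threshold in the first and the last comparison, with no member's call changed. Deposited values turned the sign of Lss between bond-disrupted and bonded animals (0.17), of Hmgcs1 (−1.34), Fdft1 (0.069), Lss (0.17) and Dhcr7 (1.08) between virgins and bonded animals, and of Fdft1 (0.26) and Srebf2 (−0.95) between virgins and bond-disrupted animals. An additive removal of the diagonal turned Lss (0.051) in the first comparison and Fdft1 (0.026) and Srebf2 (−0.0013) in the last. Fdft1 in the last was also 0.00069 with a pseudocount of 0.1, 0.025 with quantile normalization, 0.0019 with voom, 0.014 with the block and 0.048 without BD2 and BD6, where Dhcr7 between bond-disrupted and bonded animals was −0.0018. The sign of differences this near 0 is not settled.

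No pair of members passed with deposited values or without BD2 and BD6 (0 of 15 each). As deposited, r was −0.20 for Hmgcs1 and Fdft1, −0.22 for Hmgcs1 and Dhcr7, −0.17 for Sqle and Fdft1, −0.20 for Sqle and Lss, −0.020 for Sqle and Srebf2, −0.033 for Fdft1 and Dhcr7, −0.12 for Lss and Srebf2 and −0.17 for Dhcr7 and Srebf2.

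Leaving out 1 animal at a time gave 0 to 1 called genes in each comparison, 603 to 1211, 413 to 864 and 458 to 1054 genes at an unadjusted p under 0.05, and 6 (without BD6) to 15 pairs. Between bond-disrupted and bonded animals Hmgcs1 ranged from −0.016 to 0.29, Sqle from −0.21 to 0.0092, Fdft1 from −0.18 to 0.066, Lss from −0.12 to 0.063, Dhcr7 from −0.092 to 0.12 and Srebf2 from −0.0032 to 0.15. Between virgins and bonded animals Sqle ranged from −0.15 to 0.016, Fdft1 from −0.093 to 0.025 and Lss from −0.085 to 0.028. Between virgins and bond-disrupted animals Hmgcs1 ranged from −0.21 to 0.098, Sqle from −0.070 to 0.15, Fdft1 from −0.11 to 0.14, Lss from −0.11 to 0.076 and Srebf2 from −0.045 to 0.11.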

Other observations

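Neighbouring lists of lipid genes gave a few differences that do not pass the correction over 14761 genes, and the genes named here were chosen after their values were seen. Of 8 fatty acid synthesis genes tested, 1 had an unadjusted p under 0.05 between bond-disrupted and bonded animals and 1 between virgins and bonded animals, Me1 in both, and 1 between virgins and bond-disrupted animals, Fads2, where 5.89%, 3.64% and 4.24% of all genes tested passed. Me1, the malic enzyme that supplies NADPH, had means of 93.5 ± 6.05 FPKM in bonded, 122 ± 13.2 FPKM in bond-disrupted and 110 ± 15.03 FPKM in virgin animals (log2 differences from bonded 0.37, unadjusted p = 0.000737, limma adjusted p = 0.801, and 0.22, unadjusted p = 0.0320, limma adjusted p = 1). Fads2, a fatty acid desaturase, differed by −0.32 between virgins and bond-disrupted animals (unadjusted p = 0.0423, limma adjusted p = 0.945). Acly, ATP citrate lyase, and Fasn, fatty acid synthase, followed the members across animals (r = 0.87 and 0.76), with Fasn at 36.7 FPKM in BD2 and 103 FPKM in BD6.

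Of 6 efflux and storage genes tested, 1 had an unadjusted p under 0.05 between bond-disrupted and bonded animals and between virgins and bond-disrupted animals, where 5.89% and 4.24% of all genes tested passed. Abca1, the cholesterol exporter, had means of 7.04 ± 1.07 FPKM in bonded, 10.3 ± 2.63 FPKM in bond-disrupted and 7.52 ± 2.01 FPKM in virgin animals (bond-disrupted minus bonded 0.47, unadjusted p = 0.0138, limma adjusted p = 0.801, and virgin minus bond-disrupted −0.40, unadjusted p = 0.0372, limma adjusted p = 0.945). Soat2 stayed under 1 FPKM in every animal. Among cell markers, Sftpb of type 2 cells differed by 0.43 between bond-disrupted and bonded animals (unadjusted p = 0.0061, limma adjusted p = 0.801) and by 0.39 between virgins and bonded animals (unadjusted p = 0.0143, limma adjusted p = 1), as 1 of 8 markers tested in each comparison (5.89% and 3.64% of all genes), and Csf1r of macrophages differed by 1.08 between virgins and bonded animals (unadjusted p = 0.0104, limma adjusted p = 1), neither passing the correction. Csf1r also differed by 1.08 between virgins and bond-disrupted animals (unadjusted p = 0.0103, limma adjusted p = 0.945). It was 1 of 7 macrophage markers tested with such a p in each of these comparisons (3.64% and 4.24% of all genes). Between virgins and bonded animals the list's median was 0.011, beside 0.0055 over all genes, with Mrc1 at −0.39 and Marco at −0.033. Between virgins and bond-disrupted animals the list's median was −0.15, beside 0.0044 over all genes, with 3 of 7 differences above 0 and Mrc1 at −0.57.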
